A study of Mus musculus with 6 samples.

Results

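The 10 genes described here encode receptor chains for the cytokines that steer CD4+ T cells toward effector or regulatory fates: Ifngr1 and Ifngr2 for interferon-γ, Il12rb1 and Il12rb2 for IL-12, Il4ra for IL-4 and IL-13, Il21r for IL-21, Il6ra and Il6st for IL-6, Il27ra for IL-27 and Il17ra for the IL-17 family. They were taken by gene symbol from a table of 22939 genes, a set drawn up with earlier results of these data known. To ask how Sora (sorafenib, a kinase inhibitor used in liver cancer) altered mouse regulatory T (Treg) cells, naive CD4+ T cells from spleen and lymph nodes of Foxp3GFP reporter mice (C57BL/6J background) were turned into Treg cells in culture and the RNA of sorted GFP+ cells was sequenced. The 3 ctrl-Treg libraries came from cells without Sora and the 3 Sora-Treg libraries from cells cultured with it. Both groups had received plate-bound anti-CD3 with anti-CD28, TGF-β1, and antibodies that neutralise IFN-γ and IL4, so that ligands of Ifngr1, Ifngr2 and Il4ra were targeted in either culture. The labels name only the cell type and the treatment, without dose or duration, and the mice and culture are as in the methods of the study.

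Cytokine receptors of this kind have no kinase of their own. A ligand brings 2 or more chains together, the Janus kinases bound to their tails phosphorylate the chains, and STAT proteins dock there and move to the nucleus. Chains are shared between cytokines: the common gamma chain Il2rg serves IL-4 and IL-21, Il12rb1 serves IL-12 and IL-23, and the gp130 chain Il6st serves IL-6, IL-11, IL-27, LIF and oncostatin M, so the amount of each partner bears on which complexes can form. Il17ra belongs to another family and signals through the adaptor encoded by Traf3ip2. In T cells IL-12 and IFN-γ are known for the Th1 fate, IL-4 for Th2, and IL-6 with TGF-β for Th17.

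Total counts ranged from 30727686 to 37717324 per library, and each receptor chain had at least 713 counts in every library. The coefficient of variation of a chain within a group was at most 7.08%, so differences well under the fold limit of 1 on the log2 scale could be resolved. Nothing in the labels says that replicates came from separate cultures or mice, and the p-values then measure only the spread between these samples. T cell markers (Cd3e, Cd3d, Cd3g, Cd4, Foxp3 and Il2ra) were present in all libraries, with a summed level of 3425 to 3462 CPM in ctrl-Treg and 5747 to 5823 CPM in Sora-Treg (CPM, counts scaled to the library total, here after TMM correction), and 6 of 6 were higher in Sora-Treg. Most of each sum was Il2ra, at 1934 CPM in ctrl-Treg and 3795 CPM in Sora-Treg on average. The calls of Cd4 and Foxp3 (0.06 and 0.07 on the log2 scale) were smaller than the shift between scalings given below. Markers of other lineages had smaller sums. Myeloid markers (15 genes, 0 of them absent from all libraries, of which 8 were lower, 1 was higher and 6 were not called) summed to between 197 and 290 CPM in ctrl-Treg and between 236 and 271 CPM in Sora-Treg, and ctrl-Treg 1 and 2 stood apart in them, with Lyz2 at 47.5 and 47.9 CPM against 12.6 CPM in ctrl-Treg 3 and 5.64, 21.2 and 4.66 CPM in Sora-Treg. B cell markers (5 of 5 lower) summed to between 10.02 and 11.1 CPM in ctrl-Treg and between 6.18 and 7.81 CPM in Sora-Treg, CD8 T cell markers (1 of 2 lower) to between 13.2 and 15.1 CPM and between 12.6 and 13.8 CPM. Of the NK cell markers Klrb1c had at most 1 count in any library. Klrd1 and Gzma were higher. NK cell markers summed to between 1.18 and 1.60 CPM in ctrl-Treg and between 63.6 and 64.5 CPM in Sora-Treg. Most of the Sora-Treg sum was Gzma, at 0.15 CPM in ctrl-Treg and 60.2 CPM in Sora-Treg on average. The study names Gzma among Treg effector genes. Red cell markers were at most 0.157 CPM. The part of these cells in the receptor values was not tested. With ctrl-Treg 1 and 2 left out together, all 9 receptor chains called below kept their call and direction. That fit holds a single ctrl-Treg library, assumed to vary like the Sora-Treg libraries. In bulk RNA, fewer cells of a type and less RNA per cell cannot be told apart.

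Of the 10 chains, 7 were higher in Sora-Treg (29.7% of all 13463 genes tested were), 2 were lower (29.9% of all genes) and 1, Il17ra, was not called, at an edgeR adjusted p under 0.05. The 3 chains that also passed a log2 fold change of 1, the limit for a differentially expressed gene (DEG), were Il12rb2, Ifngr1 and Il4ra, and they were all higher (6.30% of all genes were DEGs in that direction). No chain was a DEG in the lower direction. The ctrl-Treg and Sora-Treg libraries did not overlap for 9 of the 10 chains, as was the case for 63.7% of all genes. The median log2 fold change of the 10 chains was 0.34, beside -0.0035 over all genes tested. Scaling by library totals in place of TMM moved the median of all genes by -0.12 and the split of all called genes from 3994 higher and 4028 lower to 2862 higher and 5614 lower. With that scaling 7 chains were higher and 3 lower, Il17ra having joined the latter.

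**Figure D1:**
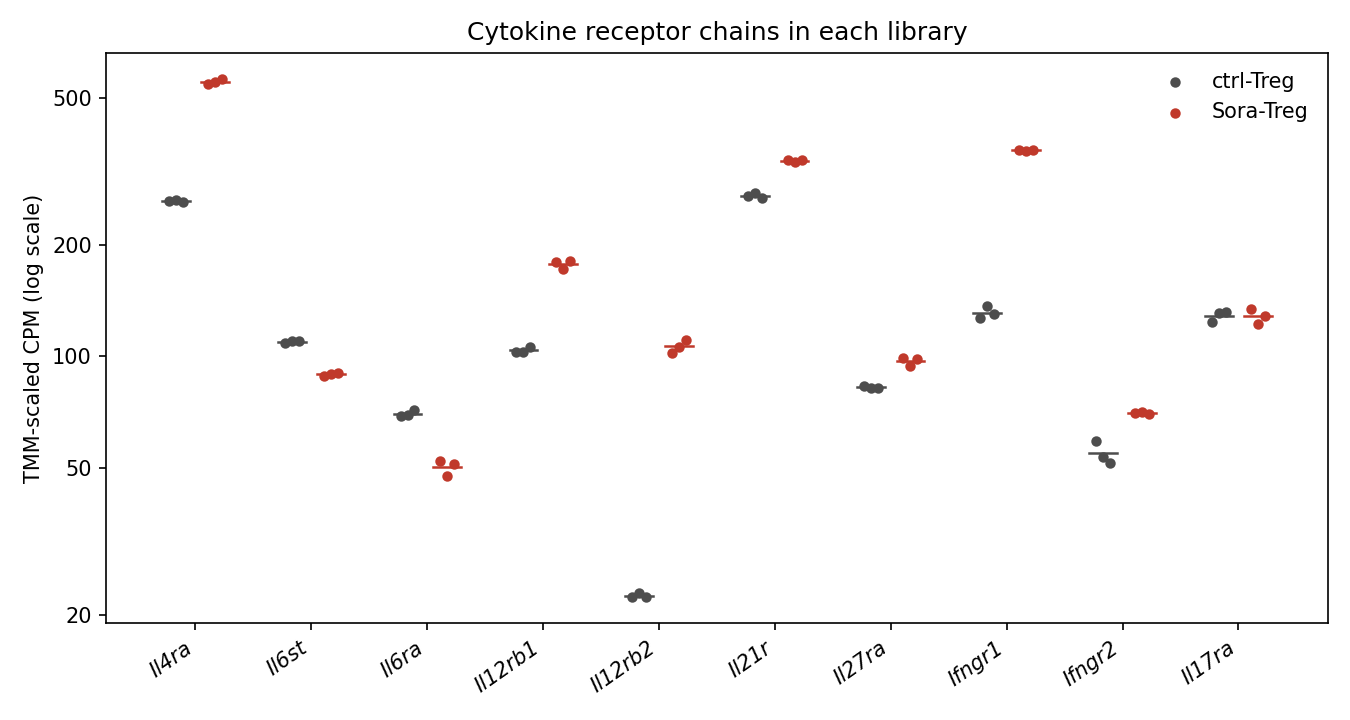
TMM-scaled CPM (log axis) of the 10 receptor chains, 1 point per library and a bar at the group mean, for 3 ctrl-Treg (grey) and 3 Sora-Treg (red) libraries. The groups lie apart for every chain but Il17ra, and the widest gap is that of Il12rb2, at 22.3 to 22.9 against 102 to 111.

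The stretches directly upstream of the start sites of the 3 DEGs, and of Ifngr2 as the partner of Ifngr1, are shown first, because they are the sequence over which the most changed chains can be compared. They are 250 bases each from RefSeq (GRCm38.p6), at chr6:67376189-67376438, minus strand, for Il12rb2, chr10:19591699-19591948, plus strand, for Ifngr1, chr7:125552021-125552270, plus strand, for Il4ra and chr16:91546809-91547058, plus strand, for Ifngr2. Capitals mark a match to a STAT motif.
Il12rb2: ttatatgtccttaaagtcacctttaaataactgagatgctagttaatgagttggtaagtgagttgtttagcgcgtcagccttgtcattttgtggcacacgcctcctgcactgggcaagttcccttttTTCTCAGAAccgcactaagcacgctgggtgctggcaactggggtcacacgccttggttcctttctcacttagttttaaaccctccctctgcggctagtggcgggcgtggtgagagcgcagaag
Ifngr1: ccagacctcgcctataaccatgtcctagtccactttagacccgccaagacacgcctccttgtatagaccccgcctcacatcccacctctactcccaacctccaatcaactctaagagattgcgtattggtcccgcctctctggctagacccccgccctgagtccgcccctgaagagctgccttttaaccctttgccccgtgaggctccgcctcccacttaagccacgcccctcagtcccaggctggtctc
Il4ra: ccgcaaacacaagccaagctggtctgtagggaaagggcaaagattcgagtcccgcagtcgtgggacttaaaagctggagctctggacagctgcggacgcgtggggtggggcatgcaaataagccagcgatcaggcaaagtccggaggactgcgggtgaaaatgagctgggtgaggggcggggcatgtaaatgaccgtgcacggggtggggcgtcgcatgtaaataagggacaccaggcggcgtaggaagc
Ifngr2: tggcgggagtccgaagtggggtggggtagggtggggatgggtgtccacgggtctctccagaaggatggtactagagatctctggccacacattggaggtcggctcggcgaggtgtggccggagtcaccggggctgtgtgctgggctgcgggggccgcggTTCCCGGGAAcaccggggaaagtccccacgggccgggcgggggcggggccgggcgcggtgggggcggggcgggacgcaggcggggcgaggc
Promoters of 7 of the 10 chains were present in the table used. Each was searched on both strands for the GAS motif TTCNNNGAA, the STAT6 spacing (TTC and GAA with 4 bases between them rather than 3), the ISRE core (GAAA and GAAA with 2 bases between them), the FOXO motif GTAAACA and the AP-1 motif TGANTCA. Il12rb2 held 1 GAS match, TTCTCAGAA, 123 to 115 bases before its start, and 7.02% of 32851 promoters held such a match. The STAT6 spacing occurred in Ifngr2, as TTCCCGGGAA 91 to 82 bases before the start (5.85% of promoters), and Il21r held a FOXO match read as TGTTTAC 38 to 32 bases before its start (3.17%). Il4ra, Ifngr1, Il6st and Il6ra held none of the 5 motifs, of which the ISRE core occurred in 2.98% and AP-1 in 6.75% of promoters. No match overlapped another. These are letters in a window, not sites shown to be bound.

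Both IFN-γ receptor chains were higher in Sora-Treg, by unequal amounts. Ifngr1, which binds the cytokine, stood at 127, 137 and 130 CPM in ctrl-Treg and at 363, 360 and 361 CPM in Sora-Treg. It was thus raised in all 3 Sora-Treg libraries to nearly a single level, 2.75 times that of ctrl-Treg, with a log2 fold change of 1.46 ± 0.03 (SE, n = 3 per group, adjusted p = 1.29e-20, edgeR). The size of this difference exceeded that of 93.5% of genes tested. Ifngr2, the signaling chain that carries Jak2, was at 59.0, 53.6 and 51.5 CPM in ctrl-Treg and at 70.3, 70.5 and 69.7 CPM in Sora-Treg. Its ctrl-Treg libraries were the most spread of any chain, and still lay below all Sora-Treg libraries (log2 fold change 0.36 ± 0.05, SE, adjusted p = 8.03e-07, edgeR). Under the 18 alternative settings Ifngr1 kept a log2 fold change of 1.33 to 1.495 and Ifngr2 of 0.24 to 0.45.

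A ratio of 2 chains within a library does not depend on how libraries are scaled. The log2 ratio of Ifngr2 to Ifngr1 counts was -1.10, -1.352 and -1.34 in ctrl-Treg and -2.37, -2.35 and -2.37 in Sora-Treg. Every Sora-Treg library thus carried less Ifngr2 per Ifngr1 than any ctrl-Treg library, by -1.10 ± 0.08 on the log2 scale (SE). Per unit of transcript length, using the deposited FPKM (fragments scaled to transcript length and library total), the ratio was 0.419 ± 0.0419 in ctrl-Treg and 0.195 ± 0.0014 in Sora-Treg (SD, n = 3). An exact permutation test of 3 against 3 libraries, two-sided, cannot give a p below 0.1, which is what this ratio gave (adjusted p = 0.129 over the 9 ratios compared).

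The IL-12 receptor showed the largest difference. Il12rb2, the chain that recruits STAT4 and that distinguishes IL-12 from IL-23 receptors, was at 22.3, 22.9 and 22.3 CPM in ctrl-Treg and at 102, 106 and 111 CPM in Sora-Treg. All Sora-Treg libraries lay far above all ctrl-Treg libraries, at 4.73 times the level (log2 fold change 2.24 ± 0.05, SE, adjusted p = 6.28e-21, edgeR), a larger difference than that of 97.4% of genes tested. Il12rb1, shared with the IL-23 receptor, went from 103, 103 and 106 CPM to 180, 172 and 182 CPM. It too was higher in every Sora-Treg library, by a log2 fold change of 0.78 ± 0.03 (SE, adjusted p = 5.33e-15, edgeR), short of the DEG limit. The gene of Il12rb2 overlaps that of Serbp1, which lies on the opposite strand and is far more abundant, and whether reads were assigned by strand is not given in the sources used here. Serbp1 itself was lower in Sora-Treg, at 600 ± 7.93 CPM in ctrl-Treg and 558 ± 17.4 CPM in Sora-Treg (SD), a log2 fold change of -0.11 ± 0.03 (SE, adjusted p = 0.00185, edgeR). The part of Serbp1 reads in the Il12rb2 counts was not tested.

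The ratio of the partners separated the groups as well. The log2 ratio of Il12rb2 to Il12rb1 counts was -2.20, -2.17 and -2.25 in ctrl-Treg and -0.82, -0.70 and -0.71 in Sora-Treg, a difference of 1.46 ± 0.04 (SE). On the length-scaled FPKM, Il12rb2 made up 0.145 ± 0.0042 of the Il12rb1 level in ctrl-Treg and 0.402 ± 0.0179 in Sora-Treg (SD). Il12rb2 therefore stayed the scarcer chain in either group. The 3 libraries of each group did not overlap (exact permutation p = 0.1, adjusted p = 0.129). Il23r, the other partner of Il12rb1, was near the limit of detection, at 0.22 to 0.28 CPM in ctrl-Treg and 0.13 to 0.35 CPM in Sora-Treg, did not pass the filter on low counts, and its ratio to Il12rb1 rests on as few as 4 counts.

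**Figure D2:**
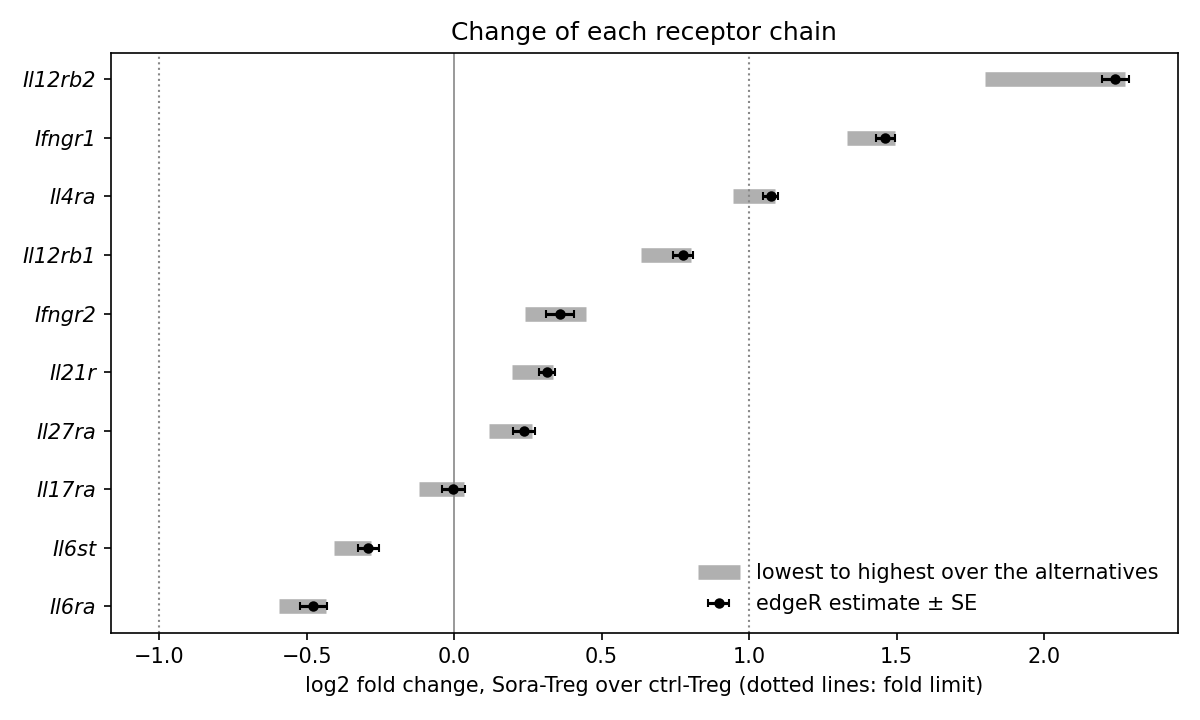
Log2 fold change of each receptor chain, Sora-Treg over ctrl-Treg, with the edgeR estimate and its SE (points and bars, n = 3 per group), the range over 18 alternative settings (grey bands) and the DEG limit of 1 in either direction (dotted lines). Il12rb2 and Ifngr1 stay beyond the limit throughout, the band of Il4ra crosses it, and that of Il17ra crosses 0.

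Il4ra, the ligand-binding chain of both IL-4 receptors and the chain through which STAT6 is engaged, was higher in Sora-Treg by a factor near the DEG limit. It was at 264, 265 and 262 CPM in ctrl-Treg and at 546, 553 and 563 CPM in Sora-Treg. The libraries of a group lay within a few percent of each other and the groups were well apart (2.10 times, log2 fold change 1.07 ± 0.03, SE, adjusted p = 1.18e-19, edgeR). The value sits just beyond the DEG limit. It was 0.96 with libraries scaled by their totals, 0.94 on log2(FPKM + 1) and 0.96 on log2(FPKM + 0.1), the FPKM values being scaled by totals too. Under these settings, as under log2(FPKM + 1) with no filter, 2 chains rather than 3 were DEGs. Its partner in lymphoid cells, the common gamma chain Il2rg, was at 459, 458 and 464 CPM in ctrl-Treg and at 511, 506 and 525 CPM in Sora-Treg (log2 fold change 0.16 ± 0.03, SE, adjusted p = 1.27e-05, edgeR). That small difference was no longer called with library totals (0.04). The log2 ratio of Il4ra to Il2rg counts was -0.80, -0.79 and -0.82 in ctrl-Treg and 0.10, 0.13 and 0.10 in Sora-Treg. Per unit of transcript length Il4ra stayed below Il2rg in both groups. The FPKM ratio was 0.183 ± 0.0021 in ctrl-Treg and 0.344 ± 0.0044 in Sora-Treg (SD, n = 3). Il13ra1, with which Il4ra forms the receptor for IL-13, was rare, at 0.53, 0.47 and 0.34 CPM in ctrl-Treg and 0.89, 2.04 and 1.348 CPM in Sora-Treg (log2 fold change 1.65 ± 0.38, SE, adjusted p = 0.000773, edgeR). Its ratio to Il4ra overlapped between the groups (exact permutation p = 0.3).

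Il21r, the IL-21 receptor chain that also pairs with Il2rg, was higher by a modest amount. Its level was 271, 276 and 268 CPM in ctrl-Treg and 339, 335 and 339 CPM in Sora-Treg. The difference was small beside that of Il4ra but many times the spread between libraries (log2 fold change 0.31 ± 0.03, SE, adjusted p = 9.11e-10, edgeR). Il21r lies next to Il4ra on chromosome 7, with 0 genes of the RefSeq annotation between them, and the pair differed in the size of their change. Per Il2rg count, the log2 ratio of Il21r was -0.76, -0.73 and -0.79 in ctrl-Treg and -0.59, -0.59 and -0.63 in Sora-Treg, a difference of 0.15 ± 0.02 (SE, exact permutation p = 0.1). The difference for Il4ra on the same scale was 0.91 ± 0.01 (SE).

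The IL-6 receptor chains were the 2 that were lower. Il6ra, which binds IL-6, was at 68.8, 69.5 and 71.5 CPM in ctrl-Treg and at 52.2, 47.4 and 51.1 CPM in Sora-Treg. No Sora-Treg library reached the lowest ctrl-Treg library, and the level was 0.718 times that of ctrl-Treg (log2 fold change -0.48 ± 0.05, SE, adjusted p = 3.97e-09, edgeR). Il6st, the gp130 signaling chain, was at 108, 110 and 110 CPM in ctrl-Treg and at 88.6, 89.5 and 90.3 CPM in Sora-Treg. It too was lower in each Sora-Treg library, by a smaller factor (0.817 times, log2 fold change -0.29 ± 0.04, SE, adjusted p = 2.09e-07, edgeR). Neither passed the DEG limit. The log2 ratio of Il6ra to Il6st was -0.66, -0.67 and -0.62 in ctrl-Treg and -0.76, -0.92 and -0.82 in Sora-Treg, a difference of -0.19 ± 0.05 (SE, exact permutation p = 0.1).

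Il27ra, which pairs with the same gp130 chain to bind IL-27, moved the other way. It was at 83.3, 82.2 and 82.3 CPM in ctrl-Treg and at 99.3, 94.2 and 98.6 CPM in Sora-Treg. All Sora-Treg libraries were above all ctrl-Treg libraries (log2 fold change 0.24 ± 0.04, SE, adjusted p = 9.09e-06, edgeR), and the value ranged from 0.12 to 0.26 over the alternatives. The log2 ratio of Il27ra to Il6st counts was -0.38, -0.42 and -0.42 in ctrl-Treg and 0.16, 0.07 and 0.13 in Sora-Treg. This was a difference of 0.53 ± 0.03 (SE, exact permutation p = 0.1, adjusted p = 0.129), without overlap. Per unit of transcript length Il27ra was above Il6st in both groups. The FPKM ratio was 1.51 ± 0.025 in ctrl-Treg and 2.18 ± 0.068 in Sora-Treg (SD, n = 3). The gene of Il27ra overlaps Palm3 on the opposite strand, which held 3 to 19 counts per library against at least 2627 for Il27ra.

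Il17ra, the shared chain of the IL-17 receptors, did not separate the groups. It was at 124, 131 and 132 CPM in ctrl-Treg and at 134, 123 and 128 CPM in Sora-Treg, with overlapping ranges. The log2 fold change was -0.0028 ± 0.04 (SE, adjusted p = 0.955, edgeR), and it ranged from -0.12 to 0.03 over the alternatives. Its partner Il17rc held between 0 and 0.063 CPM and did not pass the filter. Il17rb, the partner for IL-25, was at 3.53, 2.88 and 3.41 CPM in ctrl-Treg and at 1.55, 0.85 and 0.70 CPM in Sora-Treg. It was a DEG in the lower direction (log2 fold change -1.68 ± 0.27, SE, adjusted p = 1.07e-05, edgeR).

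**Figure D3:**
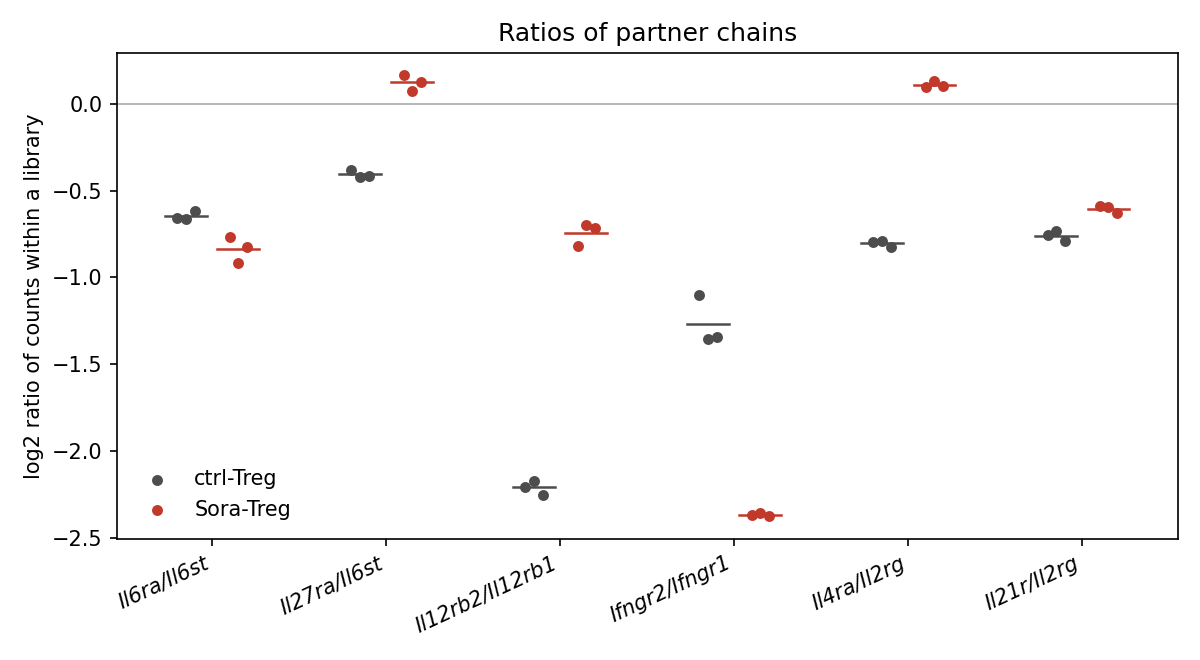
Log2 ratio of the counts of 2 partner chains within each library, 1 point per library and a bar at the group mean, for the 6 pairs with at least 100 counts of both chains. Ctrl-Treg and Sora-Treg do not overlap in any of the 6, and the log2 ratio of Il12rb2 to Il12rb1 is higher by 1.46 and that of Ifngr2 to Ifngr1 lower by -1.10 in Sora-Treg.

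In all, 9 ratios of partner chains were compared, and 7 gave an exact permutation p of 0.1, the smallest these numbers of libraries allow. After adjustment over the 9 these became 0.129, so no single ratio could pass a threshold of 0.05 in this exact test. The remaining pair, Il13ra1 to Il4ra and Il17rc to Il17ra, overlapped between the groups.

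Levels can be set against each other between genes only per length, for which the deposited FPKM was used. It takes 1 fixed length per gene, such as 3377 bases for Il6ra, 5719 for Il6st and 5590 for Il12rb1. Whether these are the lengths of the transcripts made here was not tested. The SD and the overlaps below cover only the spread between libraries, so the order of close neighbours is less sure than they show. In ctrl-Treg the order from the highest was Il21r at 98.9 ± 1.43, Ifngr1 at 64.6 ± 2.32, Il4ra at 52.5 ± 0.305, Il17ra at 33.6 ± 0.994, Il27ra at 30.1 ± 0.332, Ifngr2 at 27.0 ± 1.99, Il6ra at 21.5 ± 0.405, Il6st at 19.9 ± 0.115, Il12rb1 at 19.3 ± 0.366 and Il12rb2 at 2.81 ± 0.036 FPKM (SD, n = 3). No 2 neighbours in that order overlapped in their libraries, and Il12rb2 stood well below all others. In Sora-Treg the order was Ifngr1 at 164 ± 0.774, Il21r at 114 ± 0.963, Il4ra at 102 ± 1.49, Il27ra at 32.7 ± 0.966, Ifngr2 at 32.0 ± 0.206, Il17ra at 30.9 ± 1.47, Il12rb1 at 30.6 ± 0.907, Il6st at 15.03 ± 0.125, Il6ra at 14.3 ± 0.738 and Il12rb2 at 12.3 ± 0.490 FPKM (SD, n = 3). Here the 4 chains from Il27ra to Il12rb1 overlapped each with its neighbour, although all libraries of Il27ra and Ifngr2 lay above those of Il12rb1. The other neighbours did not overlap. Ifngr1 passed Il21r to become the most abundant chain, Il12rb1 joined the middle of the order, and the IL-6 receptor chains came to lie just above Il12rb2. The highest level was 35.2 times the lowest in ctrl-Treg and 13.4 times in Sora-Treg. The order of the means was the same after FPKM had been rescaled to an equal sum per library (TPM). Such rescaling cannot change the order within a library, so it is no separate check.

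**Figure D4:**
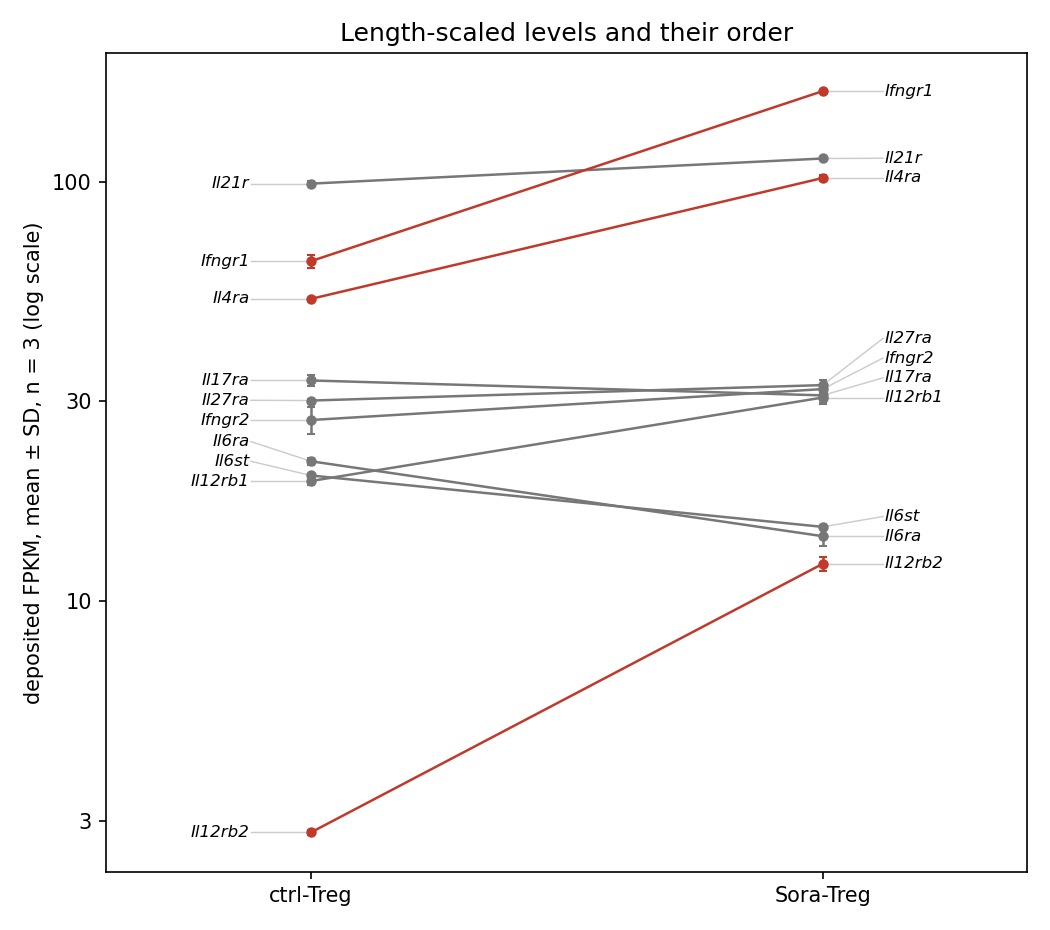
Deposited FPKM (log axis, mean ± SD, n = 3) of the 10 receptor chains in ctrl-Treg and Sora-Treg, with the 3 DEGs in red. The span from the highest to the lowest chain is narrower in Sora-Treg (13.4 times against 35.2 times), and Ifngr1 moves above Il21r.

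The genes whose profile over the 6 libraries lay nearest to a DEG were found by the Euclidean distance of centred log2 CPM. Nearest to Il12rb2 were Tnfrsf9 (distance 0.076, 505 CPM in ctrl-Treg and 2379 CPM in Sora-Treg), Pcx (0.094) and Sgk1 (0.13). For Ifngr1 they were Castor1 (0.087), Atp2b4 (0.087) and Fam102a (0.098), and for Il4ra they were Khnyn (0.044), Nsd3 (0.049) and Lif (0.065). With 6 libraries in 2 groups such a distance is mostly a match in fold change, as shown by log2 fold changes of 2.24, 2.22 and 2.19 for the neighbours of Il12rb2.

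Of the ligands for these receptors that the T cells themselves could make, 15 of 16 listed genes were in the table. The filter on low counts was passed by 11, with 5 higher, 3 lower and 3 not called in Sora-Treg. Their median log2 fold change was 0.066. Over all genes tested, 29.7% were higher and 29.9% lower. Neither this list nor those below were tested against these shares. Lif, a gp130 ligand, was abundant, at 369, 377 and 373 CPM in ctrl-Treg and 808, 787 and 821 CPM in Sora-Treg (log2 fold change 1.11 ± 0.03, SE, adjusted p = 4.57e-20, edgeR). Il21, the ligand of Il21r, was at 5.05, 5.88 and 4.85 CPM against 25.2, 25.6 and 27.6 CPM (2.31 ± 0.09, SE). Osm (0.42 ± 0.04, SE), Il17f (1.09 ± 0.23) and Il11 (2.13 ± 0.55, at 0.51 CPM or less) were also higher. Il23a, which encodes the subunit particular to IL-23, had the largest difference in the other direction, at 15.6, 13.5 and 16.001 CPM in ctrl-Treg and 2.08, 2.42 and 1.43 CPM in Sora-Treg (-2.94 ± 0.14, SE, adjusted p = 3.48e-14, edgeR). Ebi3, a subunit of IL-27 and IL-35, was at 36.4 and 31.5 CPM on average (-0.21 ± 0.05, SE).

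Several other ligand genes were scarce, among them those for IFN-γ, IL-4 and IL-12, the ligands of the 3 receptors with the largest changes. Ifng was at 1.37, 1.70 and 1.53 CPM in ctrl-Treg and 2.11, 1.41 and 1.32 CPM in Sora-Treg (log2 fold change 0.07 ± 0.27, SE, adjusted p = 0.85, edgeR). Il4 held 8 to 17 counts per library (-0.48 ± 0.47, SE, adjusted p = 0.393, edgeR), and Il17a was at 1.28 and 1.24 CPM on average (-0.05 ± 0.31, SE, adjusted p = 0.899, edgeR). Il13 was called lower (-1.11 ± 0.41, SE, adjusted p = 0.0245, edgeR), but its groups overlapped and the call was lost without ctrl-Treg 2 (-1.14), ctrl-Treg 3 (-0.80), Sora-Treg 2 (-0.95) or Sora-Treg 3 (-0.89). Below the filter, and so not tested, were Il6, Il12a, Il12b with at most 2 counts in any library and Il27 with at most 1. Il6 held 10, 9 and 6 counts in ctrl-Treg and 1, 1 and 6 in Sora-Treg. Il12a held 11, 30 and 11 counts in ctrl-Treg and 1, 0 and 1 in Sora-Treg.

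Of 5 other partner chains that passed the filter, 3 were higher, 1 was lower and 1 was not called, with a median log2 fold change of 0.16. Besides Il2rg, Il13ra1 and Il17rb, they were Il11ra1, the IL-11 receptor, at 6.43, 6.62 and 6.45 CPM in ctrl-Treg and 11.6, 10.5 and 8.96 CPM in Sora-Treg (log2 fold change 0.67 ± 0.11, SE, adjusted p = 1.95e-05, edgeR), and Lifr, the LIF receptor, at 0.34 and 0.26 CPM on average (-0.38 ± 0.54, SE, adjusted p = 0.572, edgeR). Libraries with abundant Lif counts thus held few for Lifr. Among 18 other cytokine receptor chains of T cells, 7 were higher, 4 lower and 7 not called, with a median of 0.12. The extremes were Il7r (1.30 ± 0.05, SE) and Il2ra (0.97 ± 0.02), the receptors for IL-7 and IL-2, on the higher side, and Il9r (-2.12 ± 0.24) and Il18rap (-0.75 ± 0.10), for IL-9 and IL-18, on the lower side.

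Among 22 genes for Janus kinases, STATs, SOCS proteins and phosphatases, 13 were higher, 5 lower and 4 not called, none as a DEG, and the median log2 fold change was 0.13. Socs3, an inhibitor that acts on gp130, was at 209, 215 and 208 CPM in ctrl-Treg and 410, 395 and 413 CPM in Sora-Treg (0.95 ± 0.03, SE, adjusted p = 6.08e-18, edgeR). Stat3, which serves IL-6 and IL-21, was at 586, 583 and 568 CPM against 988, 990 and 1004 CPM (0.78 ± 0.02, SE, adjusted p = 8.6e-18, edgeR). Stat5a (-0.55 ± 0.03, SE) and Ptpn11 (-0.27 ± 0.04) were the lowest. Of 5 genes for receptor shedding and IL-17 receptor adaptors, 2 were higher, 2 lower and 1 not called, with a median of -0.0064. Traf3ip2, the IL-17 receptor adaptor, was higher (0.41 ± 0.05, SE) beside an Il17ra that was not called, as was Traf6 (0.13 ± 0.03), whose difference shrank to 0.01 with library totals, whereas the sheddase Adam10 (-0.26 ± 0.04) and Traf3 (-0.20 ± 0.04) were lower.

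Known target genes of each receptor were counted in the same way, in lists that share some genes. The shares over all genes tested were 29.7% higher and 29.9% lower. Of 23 IFN-γ target genes, 4 were higher, 13 lower and 6 not called, with a median log2 fold change of -0.18, although both IFN-γ receptor chains were higher. Irf8 (0.97 ± 0.03, SE), at 249, 239 and 240 CPM against 479, 466 and 478 CPM, and the GTPase gene Gbp2 (0.73 ± 0.04) led the higher ones. The lowest were 2 rare transcripts. Ciita, the regulator of MHC class II, was at most 0.94 CPM (-1.498 ± 0.52, SE, adjusted p = 0.0169, edgeR), and lost its call without ctrl-Treg 1 (-1.08) or Sora-Treg 1 (-1.09). Cxcl10, a chemokine gene, was at most 0.52 CPM (-1.46 ± 0.57, SE, adjusted p = 0.0325, edgeR), and lost its call without ctrl-Treg 2 (-1.22), ctrl-Treg 3 (-1.501), Sora-Treg 1 (-1.14) or Sora-Treg 3 (-1.30).

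Of 15 IL-6 and STAT3 target genes, 12 were higher, 1 lower and 2 not called, with a median of 0.51, while Il6ra and Il6st were lower. Beside Il21, Maf led, at 18.1, 19.2 and 18.5 CPM in ctrl-Treg and 64.5, 75.2 and 64.8 CPM in Sora-Treg (log2 fold change 1.87 ± 0.06, SE, adjusted p = 2.21e-17, edgeR). The smallest difference among those called higher was that of Ahr, the aryl hydrocarbon receptor (0.37 ± 0.06, SE). Batf, an AP-1 family factor, was the 1 lower gene, at 71.3 and 55.3 CPM on average (-0.37 ± 0.05, SE).

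Of 12 IL-4 and STAT6 target genes, 6 were higher, 3 lower and 3 not called, with a median of 0.10. Il24 (8.31 CPM in ctrl-Treg and 163 CPM in Sora-Treg on average, log2 fold change 4.30 ± 0.05, SE, adjusted p = 1.41e-25, edgeR) and Nfil3 (1.74 ± 0.04) were the most raised. Il5, a Th2 cytokine gene, was at 3.63, 3.49 and 3.38 CPM in ctrl-Treg and at 0.43, 0.19 and 0.14 CPM in Sora-Treg (-3.81 ± 0.33, SE, adjusted p = 8.77e-10, edgeR). It and Il13 were the lowest of that list.

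Of 12 IL-12 and STAT4 target genes, 6 were higher, 3 lower and 3 not called, with a median of 0.10, and Il12rb2 is itself among the 6. The highest were Gzmb, which encodes granzyme B (10.7 CPM in ctrl-Treg and 379 CPM in Sora-Treg on average, log2 fold change 5.14 ± 0.04, SE, adjusted p = 3.54e-28, edgeR), and Ctla2a (2.66 ± 0.04). Cxcr3, the chemokine receptor of Th1 cells, was at 11.3, 11.6 and 14.3 CPM in ctrl-Treg and at 5.50, 3.61 and 5.28 CPM in Sora-Treg (-1.36 ± 0.14, SE, adjusted p = 9.54e-09, edgeR), and Il18rap was lower too. Of 9 IL-27 target genes, 6 were higher, 1 lower and 2 not called, with a median of 0.75. Il10 (8.40 times, log2 fold change 3.07 ± 0.10, SE) and Maf were the highest. Cd274, which encodes PD-L1 (-0.10 ± 0.03, SE, -0.09 and no longer called without ctrl-Treg 1), was lower by little. Il10 was singled out by the study on these same samples, so its count is not independent evidence of a direction.

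**Figure D5:**
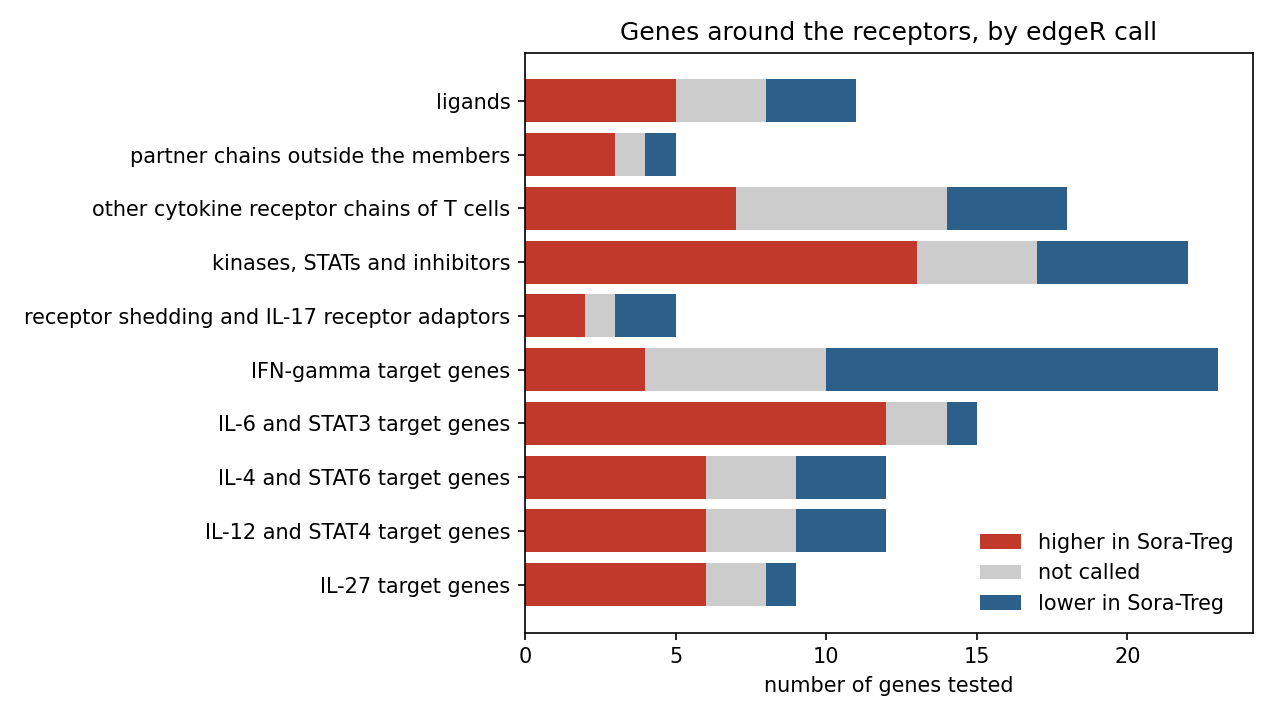
Number of genes called higher (red), not called (grey) or called lower (blue) in Sora-Treg at an edgeR adjusted p under 0.05, for 10 lists of genes around the receptors. IFN-γ targets hold 13 lower of 23, and IL-6 and STAT3 targets 12 higher of 15. Some genes stand in more than 1 list. Over all genes tested, 29.7% were called higher and 29.9% lower.

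Over these lists without the receptor chains themselves, 55 genes were higher and 32 lower with TMM scaling, and 45 were higher and 44 lower with library totals. The balance pooled over these lists therefore moved with the scaling. How the balance of each single list moved was not counted. The 9 called receptor chains kept their calls with library totals, and Il17ra joined the lower ones.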

How the data were processed

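RNA-seq of 3 ctrl-Treg and 3 Sora-Treg libraries was analysed, grouped and numbered by sample title. Raw counts and FPKM values, both by gene symbol, were deposited by the authors. Each FPKM equalled the count divided by 1 length per gene and the library total (largest relative difference 1.64e-06), so it is no separate measurement. The submitters' processing notes list fastp, HISAT2, HTSeq, DESeq2, R 3.2.0 and GRCm39, whereas the study's methods name Bowtie2 and GRCm38. Of 22939 symbols, 250 of the LOC118567 series are not in RefSeq GRCm38.p6. Which route made the counts is not settled, so no coordinates of counted genes are given, and promoters come from RefSeq GRCm38.p6. The treatment of strand is not given in the sources used here.

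Counts were tested with edgeR 4.0.16 in R 4.3.3 (quasi-likelihood, TMM, filterByExpr, 13463 genes, no covariate, Benjamini-Hochberg over all of them). The SE is that implied by the F statistic. A floor of 3 counts was 0.0795 to 0.0976 CPM, which covers counting error only. Ratios took counts plus 0.5. FPKM was tested with limma 3.58.1 on log2(FPKM + 1) or log2(FPKM + 0.1), for genes with a mean of at least 1, and fold changes on that scale understate those of low genes. DESeq2 1.42.0, other scalings and filters, robust fitting, a replicate block and leaving libraries out were the other alternatives.

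On simulated counts for this comparison with 200 changed genes, edgeR recovered 99.5% with 5.69% false calls over 13424 genes. DESeq2 recovered 97.5% (16353 genes) and limma on log2(FPKM + 1) 90.5% (10413 genes). In the data themselves 3994 genes were called higher and 4028 lower. Recovery at such numbers of called genes, or by the size of the difference, was not tested. Within-group pairs of libraries differed by more than sampling noise (chi-square per degree of freedom 3.48 to 6.23). The receptor chains and gene lists were chosen with earlier results of these data known. Beside the receptor chains, genes named were the ligands and partner chains that passed the filter, the 2 highest and 2 lowest called genes of each other list, and the 3 genes nearest to each DEG. Serbp1, Palm3, Lyz2, Cd4, Foxp3, Klrb1c, Klrd1, Gzma and the genes under the filter were named after their values were seen. Some genes of these pathways were left out of the lists and are not analysed here.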

Additional observations from a re-analysis of the deposited data

How the results depend on the processing

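All 9 called receptor chains kept their direction and call under all 18 alternatives. Il17ra, not called, was above 0 with RLE scaling (0.0016), a CPM filter (0.0011) and without ctrl-Treg 2 (0.011), ctrl-Treg 3 (0.011) or Sora-Treg 2 (0.032, the highest without 1 library, the lowest being -0.033), and was called lower with library totals (-0.12, adjusted p = 0.00943), log2(FPKM + 1) and log2(FPKM + 0.1). The FPKM values are scaled by library totals too, so these settings are not separate scalings. Of 51 other genes named, 39 kept direction and call in every alternative that tested them. Those that changed sign were not called in either fit. Ifng turned below 0 with library totals (-0.049), log2(FPKM + 1) with and without the filter (-0.034), log2(FPKM + 0.1) (-0.064) and without ctrl-Treg 1 (-0.0088) or Sora-Treg 1 (-0.17, the lowest without 1 library, the highest being 0.20). Il17a turned above 0 without ctrl-Treg 1 and 2 together (0.36), ctrl-Treg 1 (0.15), Sora-Treg 1 (0.036) or Sora-Treg 3 (0.084), with -0.29 the lowest without 1 library. The listed genes that were DEGs in the higher direction numbered 16, and 10 on log2(FPKM + 1) with or without the filter. The cause was not tested. The log2 ratio of Il17rc to Il17ra, resting on 0 to 2 counts of Il17rc, was 0.39 and ranged from -0.20 to 1.14 without 1 library. With the replicate number as a block, 55 listed genes were higher and 32 lower, 3 receptor chains were DEGs and no receptor call changed. Same-numbered libraries did not deviate together (correlations -0.044, 0.059 and 0.03), so no pairing by number was seen. Such values cannot exclude that same-numbered libraries shared a mouse or culture, which the labels do not give. Depth limits Il23r, Il17rc and ligands of a few counts. With 3 libraries against 3, the exact permutation test of a single ratio cannot reach 0.05.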
